A study of Mus musculus with 32 samples.

Results

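The response of the newborn mouse lung to 85% O2 at post-natal day (P)5 was measured in mice that had all received antimiR-34a, a locked nucleic acid oligonucleotide that binds and blocks microRNA miR-34a. The members were taken from the sample titles alone: 4 mice kept at 85% O2 and 4 mice kept at 21% O2, 8 of the 32 mice with an mRNA array. All were wild-type C57Bl/6J pups injected into the peritoneum with antimiR-34a at P1 and P3, and the 85% O2 group had been in hyperoxia since P1. Where a comparison with the untouched microRNA was needed, 8 mice given a scrambled antimiR of no known target (4 at 85% O2, 4 at 21% O2) were used, and for the change with age the 8 antimiR-34a mice of P14 at the same oxygen levels. RNA came from whole lung flushed of blood, so the arrays do not separate cell types, and the oligonucleotide was given to the whole animal. Both sexes were used and the labels do not give the sex of a pup, nor whether pups shared a litter, so the p-values measure the spread between these mice.

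Hyperoxia in the newborn mouse is a model of bronchopulmonary dysplasia, the lung disease of preterm infants in whom the formation of alveoli is arrested. At P5 the secondary septa that divide the airspaces are being raised by PDGFRα+ myofibroblasts, which multiply and lay down elastin. High oxygen damages DNA and proteins through reactive oxygen species, which engages the p53 pathway (cell cycle arrest and death) and the NRF2 pathway (antioxidant and detoxifying enzymes), and miR-34a is itself a transcriptional target of p53.

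A microRNA finds its targets through its seed, bases 2 to 8 from the 5′ end, and the miR-34 and miR-449 families have the same one. The mature sequences are shown, from RefSeq (GRCm38.p6), because an oligonucleotide against miR-34a meets relatives that read the same sites, with the seed in capitals.
mmu-miR-34a-5p: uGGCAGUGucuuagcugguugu
mmu-miR-34b-5p: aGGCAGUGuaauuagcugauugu
mmu-miR-449a-5p: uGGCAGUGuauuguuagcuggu
Of 1738 mature mouse microRNAs in the table, 4 had this seed, the remaining one being mmu-miR-449c-5p. The family member mmu-miR-34c-5p has no entry in that table and is not counted. The arrays carried no probe for a mature microRNA, so the degree of blockade in these 8 mice was not measured here. By PCR, the paper reports less functional miR-34a in lungs at P5 after antimiR-34a, with miR-34b unaffected and miR-34c moderately affected. They did carry probes in noncoding intervals beside p53 target loci, and 2 of these probes stand here because their intervals were among the strongest rises (mm9 coordinates from the array annotation).
chr4 interval probe, plus strand, chr4:149445771-149445830: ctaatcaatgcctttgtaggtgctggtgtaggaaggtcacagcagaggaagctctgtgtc
chr17 interval probe, minus strand, chr17:29207238-29207297: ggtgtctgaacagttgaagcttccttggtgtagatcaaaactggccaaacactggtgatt
The first interval lies on the array's map between H6pd and Gpr157, the genes that flank Mir34a in RefSeq order. The second lies ahead of the Cdkn1a probe (chr17:29237377-29237436).

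Levels are given as log2 of the processed spot intensity relative to the 75th percentile of the same array, so that 0 is the brightness of a probe at that percentile and a difference of 1 is a 2-fold change. Levels of different probes are not compared. Folds, and the bounds given for genes above background in one group only, rest on the scanner software's background subtraction. With normexp correction and an offset of 50 the differences of faint probes were smaller, and the log2 difference under it follows as "normexp" where it shrank by more than 1.5 times or lost the call. A probe was called where limma's adjusted p was under 0.05. Oxygen level cannot be told apart from slide and scan at P5, since slide 1 held all 21% O2 arrays and slide 2 all 85% O2 arrays. Between 33606 and 34590 probes were well above background on the 85% O2 arrays and between 36249 and 37041 on the 21% O2 arrays, with no overlap (exact permutation test, two-sided, p = 0.0286, the smallest that 4 against 4 allow).

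An array of the 85% O2 group stood apart. Replicate 3 carried liver transcripts: the summed log2 level of 7 liver genes was 7.08 there, 2.13 in replicate 4, 1.17 and 1.05 in replicates 1 and 2, and between 1.10 and 1.32 in the 21% O2 mice. Its 75th percentile was also the dimmest of its group (9.20 against 9.77 to 9.93, log2 intensity), and it correlated with its group at 0.984 to 0.989. These liver genes were listed after the values were seen. Of the 16776 calls described next, 15558 were also made without replicate 3 and 13644 without replicates 3 and 4, and none changed sign, so calls lost without them are stated beside the genes named here. Summed Y chromosome gene levels were high in 1 of 4 mice at 21% O2 and 2 of 4 at 85% O2, and summed heart muscle levels were 4.80 to 6.06 at 85% O2 and 5.91 to 6.70 at 21% O2, with some overlap, while summed skeletal muscle levels (1.23 to 1.33 at 21% O2, 0.68 to 1.06 at 85% O2) and thymus levels (2.40 to 2.55 and 1.42 to 1.74) did not overlap.

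**Figure D1:**
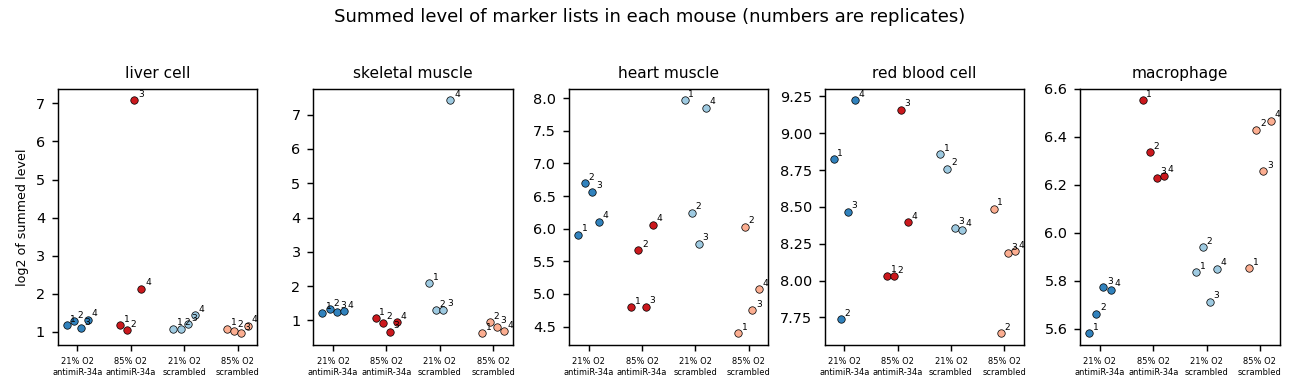
Summed level of 5 marker lists (y axis, log2 of the sum of levels, each scaled to the 75th percentile) in each P5 mouse, with the replicate number beside each point and the 4 groups along the x axis. Liver transcripts reached 7.08 in 85% O2 antimiR-34a replicate 3 and skeletal muscle transcripts 7.41 in 21% O2 scrambled antimiR replicate 4, whereas macrophage transcripts were higher in all 4 antimiR-34a mice at 85% O2 (6.23 to 6.55) than at 21% O2 (5.58 to 5.77).

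The oxygen response of antimiR-34a mice at P5 reached much of the array. Of 35981 probes tested 16776 were called (46.6%), of which 6173 were higher (17.2% of those tested) and 10603 lower (29.5%) at 85% O2. Under quantile normalization 49.1% of the called probes were higher, against 36.8% here, so the excess of falls depends on the scaling. Most changes were small: the median size of a called change was 0.51 on the log2 scale, and 2328 probes moved at least 2-fold, 580 up and 1748 down. Reduced to 1 probe for each of 15280 named genes, with p-values still adjusted over all probes, 3627 genes rose and 3631 fell, 334 and 473 of them at least 2-fold.

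Among the 31 lists other than that of liver genes, p53 targets had the highest median. Of 20 listed and tested, 18 rose and 1 fell, beside the 17.2% and 29.5% of all probes against which the counts of every list stand, with a median log2 difference of 1.55, against -0.09 over all probes. Gdf15, a stress-induced cytokine of the TGF-β family, was -2.30, -2.26, -2.19 and -2.32 in the 4 mice at 21% O2 and 1.94, 1.78, 1.98 and 2.20 in the 4 at 85% O2. Cdkn1a, which encodes the cell cycle inhibitor p21, was -0.09, 0.10, -0.10 and -0.25 at 21% O2 and 4.05, 4.03, 4.09 and 4.15 at 85% O2. For both genes every hyperoxic mouse was above every mouse at 21% O2, and the gap was many times the spread within a group. The rise was 18.9-fold for Gdf15 (log2 difference 4.24 ± 0.0853 SE, adjusted p = 3.97e-13) and 18-fold for Cdkn1a (4.17 ± 0.149, adjusted p = 1.28e-10).

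Among the other p53 targets, Eda2r, a death receptor of the TNF receptor family, was not well above background in any 21% O2 mouse and was -3.22, -3.22, -3.16 and -3.11 at 85% O2, at least 6.61-fold higher (normexp 1.27). Ccng1, cyclin G1, rose 5.74-fold from 0.31 ± 0.0436 (SD, n = 4) to 2.83 ± 0.156. The ubiquitin ligase gene Mdm2, which restrains p53, rose 1.90-fold and the pro-apoptotic gene Bax 2.89-fold. Plk2, a polo-like kinase, went the other way and fell by 0.43 (adjusted p = 0.00377), from 1.56 to 2.02 at 21% O2 to 1.28 to 1.52 at 85% O2. Perp, a membrane protein of p53-dependent apoptosis, had a difference of 0.81 that was not called (adjusted p = 0.0628) although its groups did not overlap. It was called with only the compared groups in the fit (adjusted p = 0.00181), by the methods' t-test (0.0103) and with array weights (0.0311). For the p53 gene itself, Trp53, the probe is placed on chromosome 17 in the array annotation and the gene is on chromosome 11, so its called difference of 0.48, with overlapping groups and no call without replicates 3 and 4 (adjusted p = 0.07), cannot be assigned to the gene.

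The noncoding intervals whose probes are printed above also rose. The 3 probes of the chr4 interval rose by 2.69 to 2.93 on the log2 scale. The printed one was -0.08, 0.18, 0.14 and 0.21 at 21% O2 and 2.99, 2.97, 3.00 and 3.03 at 85% O2 (adjusted p = 4.68e-12). No mouse of one group came near the other. The 4 probes of the chr17 interval rose by 0.99 to 3.70, the printed one from between -4.46 and -3.84 to between -0.75 and -0.34 (adjusted p = 1.6e-10).

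The Cdkn1a promoter is shown because Cdkn1a was among the largest rises and its promoter held a match to the pattern of a p53 response element. The 250 bases before its RefSeq start (GRCm38.p6, chr17:29090729-29090978, plus strand) are printed with the match in capitals.
Cdkn1a promoter: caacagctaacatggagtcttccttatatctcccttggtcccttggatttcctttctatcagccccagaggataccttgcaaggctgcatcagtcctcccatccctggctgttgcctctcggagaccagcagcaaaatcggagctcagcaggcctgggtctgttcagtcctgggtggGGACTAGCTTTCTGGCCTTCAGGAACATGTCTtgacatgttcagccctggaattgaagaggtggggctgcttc
The pattern, both half-sites with a spacer allowed, was searched on both strands, and the match lay 42 to 73 bases before the start. The bases directly after the match would form a further half-site without a spacer but for their first base, so they are not in capitals. Which half-sites p53 binds was not tested. A match was found in 1 of 15 p53 target promoters in the table and in 18 of 27025 promoters of all genes (0.0666%) in a window of this length, which leaves out sites farther away or within the gene.

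Genes of the NRF2 pathway rose as a group. Of 24 tested, 21 rose and 1 fell, with a median of 0.76. Hmox1, which breaks down haem, was 1.43, 1.55, 1.62 and 1.42 at 21% O2 and 4.19, 3.35, 4.08 and 3.77 at 85% O2, a 5.08-fold rise (adjusted p = 1.17e-05). Gpx2, a glutathione peroxidase, rose 5.01-fold, and its levels at 85% O2 fell into a lower pair (3.12 and 3.26) and a higher pair (3.88 and 3.81, the arrays with liver transcripts). Without those arrays its log2 difference was 2.00 in place of 2.33. Ephx1, an epoxide hydrolase, rose 4.02-fold to 5.44 ± 0.0343 (SD, n = 4), and Nqo1, the quinone reductase used as a readout of NRF2, rose 2.66-fold from -2.04, -2.05, -2.30 and -2.10 to -0.66, -0.71, -0.68 and -0.80. Gclc, the catalytic subunit of glutathione synthesis, rose 2.75-fold. Slc7a11, the cystine importer that feeds glutathione synthesis, was above background only at 85% O2, at least 2.78-fold higher (normexp 0.63). The exception was Ugdh, UDP-glucose dehydrogenase, which fell by 0.38.

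Antioxidant enzymes outside that list moved less. Of 14 tested, 11 rose and 2 fell, with a median of 0.42. The plasma glutathione peroxidase Gpx3 rose 2.01-fold and the mitochondrial superoxide dismutase Sod2 1.67-fold, and both groups of mice stood clear of each other for each gene. The peroxiredoxin gene Prdx2 fell by 0.33 (adjusted p = 0.00214).

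The antioxidant response element, TGACNNNGC on either strand, was found in the 250 bases before the start of 5 of 19 NRF2 target promoters (26.3%) and of 11.5% of all genes. It was also found in 3 of 15 p53 target promoters (20.0%) and 3 of 18 mitosis promoters (16.7%). One is printed as an example, that of Txnrd1, thioredoxin reductase (GRCm38.p6, chr10:82858956-82859205, plus strand), with the element in capitals 84 to 92 bases before the start on the opposite strand.
Txnrd1 promoter: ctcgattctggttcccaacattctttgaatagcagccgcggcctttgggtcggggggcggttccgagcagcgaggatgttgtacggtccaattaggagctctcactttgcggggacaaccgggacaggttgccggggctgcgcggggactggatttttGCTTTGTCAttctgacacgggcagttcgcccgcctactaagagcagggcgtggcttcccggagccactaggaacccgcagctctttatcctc
Txnrd1 itself rose by 0.72 on the log2 scale (adjusted p = 1.04e-06).

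The integrated stress response, run by the transcription factor ATF4 when amino acids or protein folding fail, was also raised. Of 20 targets 13 rose and 1 fell, with a median of 0.55. Nupr1, a stress-induced chromatin protein, went from 3.85, 4.04, 3.94 and 3.88 to 5.68, 5.61, 5.80 and 5.75, a 3.43-fold rise. The pseudokinase gene Trib3 rose 3.34-fold, the asparagine synthetase gene Asns 2.68-fold and Ddit3, which encodes CHOP, 1.91-fold. Psph, an enzyme of serine synthesis, fell by 0.25. In the list of hypoxia-inducible genes, 9 of 18 rose and 1 fell, beside 17.2% and 29.5% of all probes, with a median of 0.29 (0.36 without replicate 3). Slc2a1, the glucose transporter, rose 1.86-fold and Vegfa, the endothelial growth factor, 1.28-fold, whereas Egln3, a prolyl hydroxylase that is itself a HIF target, fell by 0.56. Ankrd37, the largest rise of the list at 3.77-fold, is described with the scrambled antimiR mice.

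**Figure D2:**
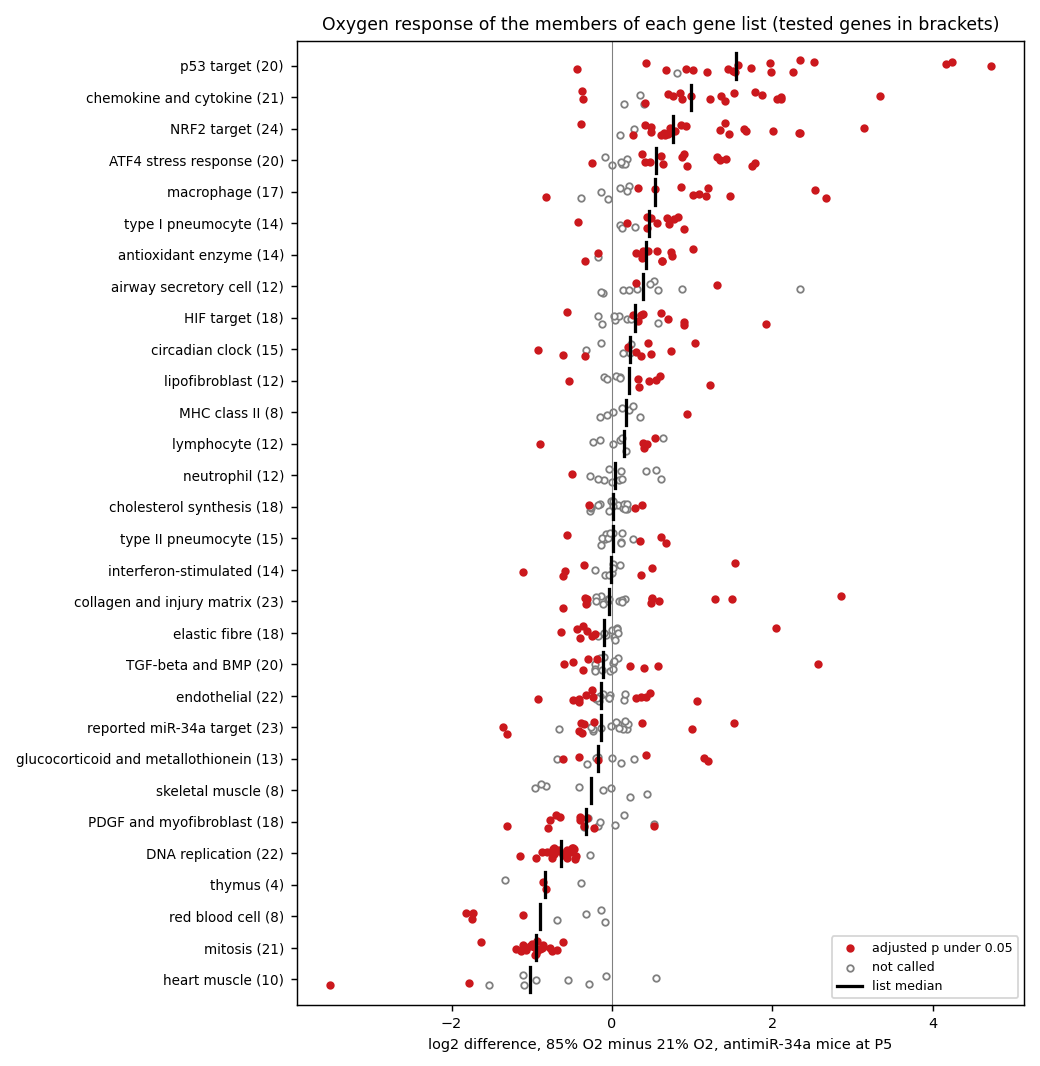
Log2 difference between 85% O2 and 21% O2 (x axis) for each tested gene of 30 lists (y axis, tested genes in brackets) in antimiR-34a mice at P5. Filled red points were called, open points were not, and the bar is the list median: 1.55 for p53 targets, 0.76 for NRF2 targets and -0.95 for mitosis genes, of which all 21 tested lie on the left.

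Nearly all tested genes of mitosis and DNA replication fell. Of 22 mitosis genes 21 were tested and 21 fell, with a median of -0.95 against 29.5% of all probes lower. Of 23 DNA replication genes 22 were tested and 21 fell, with a median of -0.63, on probes that for Pcna and Rrm2 may not measure the gene. Cdk1, the kinase that drives entry into mitosis, was 1.15, 1.17, 1.11 and 1.13 at 21% O2 and -0.51, -0.06, -0.88 and -0.54 at 85% O2, a 3.11-fold fall (log2 difference -1.64 ± 0.129 SE, adjusted p = 3.15e-07). The 21% O2 mice were nearly identical and the 85% O2 mice spread more widely, with replicate 3 the lowest, and without it the difference was -1.51. Mki67, the proliferation antigen Ki-67, was 4.64, 4.72, 4.81 and 4.69 at 21% O2 and 3.38, 3.84, 3.43 and 3.44 at 85% O2, a 2.28-fold fall. Kif23, a kinesin of cytokinesis, fell 2.19-fold, and Cdc6, which loads the replicative helicase, 2.21-fold. The smallest called fall in the mitosis list was that of Ccnf, cyclin F (-0.61). Gins2, a helicase subunit, was the replication gene that was not called (-0.28, adjusted p = 0.142). The probes of Pcna and Rrm2 are placed in the array annotation on chromosomes other than those of their genes, so their falls of 0.61 and 0.95 cannot be assigned to them. In whole lung, fewer cells of a type and less RNA per cell cannot be told apart.

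The Cdk1 promoter (GRCm38.p6, chr10:69352913-69353162, minus strand) is shown for the arrangement that many mitosis genes share, CCAAT boxes with a cell cycle homology region (TTTGAA), both in capitals.
Cdk1 promoter: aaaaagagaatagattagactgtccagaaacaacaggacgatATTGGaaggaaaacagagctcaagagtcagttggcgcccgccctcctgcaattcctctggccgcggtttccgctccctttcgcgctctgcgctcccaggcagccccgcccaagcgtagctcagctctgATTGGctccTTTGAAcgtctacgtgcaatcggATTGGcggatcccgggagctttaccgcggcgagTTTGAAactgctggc
TTTGAA stood 10 to 15 and 66 to 71 bases before the start, and CCAAT, on the opposite strand and read as ATTGG, at 44 to 48, 76 to 80 and 204 to 208, with no overlap. On either strand, 16 of 18 mitosis promoters in the table held CCAAT (88.9%) against 37.5% of all 27025 and 63.2% of replication promoters, and 8 held TTTGAA (44.4%) against 18.3%. CCAAT was also found in 60% of p53 target and 52.6% of NRF2 target promoters, and TTTGAA in 26.7% and 21.1% of them and 15.8% of replication promoters. TTTNNCGC, a form of the E2F site, was found in 6 of 19 replication promoters (31.6%) and 4.94% of all.

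**Figure D3:**
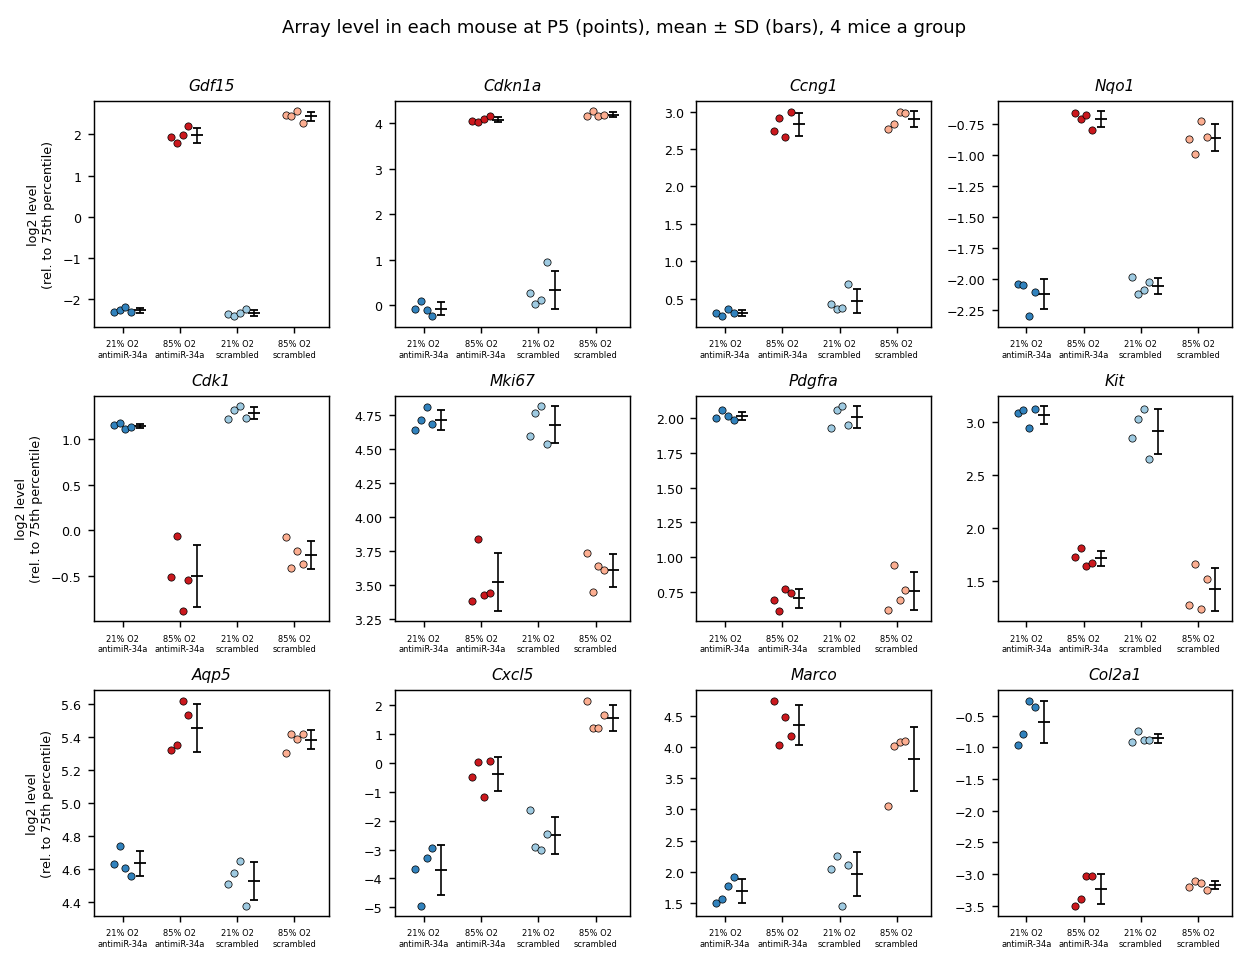
Log2 level relative to the 75th percentile (y axes) of 12 genes in each P5 mouse, with bars for mean ± SD over 4 mice, for the antimiR-34a groups (dark) and the scrambled antimiR groups (light) at 21% O2 (blue) and 85% O2 (red). In each panel the antimiR-34a mice of the 2 oxygen levels do not overlap, as for Pdgfra (1.99 to 2.06 against 0.61 to 0.77) and Kit (2.95 to 3.13 against 1.64 to 1.81). The same held for 42.0% of all tested probes, and Gdf15, Cdkn1a, Cxcl5, Marco and Col2a1 were named by a rule that required it.

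In the PDGF and septal myofibroblast list 10 of 18 tested genes fell, Pdgfra the most, and 7 were not called, beside 29.5% of all probes lower. Pdgfra, the receptor tyrosine kinase for PDGF-A and a reported target of miR-34a, was 2.00, 2.06, 2.02 and 1.99 at 21% O2 and 0.69, 0.61, 0.77 and 0.74 at 85% O2. All 4 hyperoxic mice lay below all 4 mice at 21% O2, and Pdgfra fell 2.49-fold (log2 difference -1.31 ± 0.0685 SE, adjusted p = 6.25e-09). Its ligand gene Pdgfa rose 1.43-fold from 5.17 to 5.32 up to 5.68 to 5.84, the one rise in the list (median -0.33). Among those that fell were Aspn, asporin (by 0.80), Tgfbi, a TGF-β-induced matrix protein (by 0.77), Wnt5a, a WNT ligand of the septal mesenchyme (by 0.69) and Pdgfrb, the second PDGF receptor (by 0.65). Acta2, smooth muscle α-actin, fell by 0.23 (adjusted p = 0.0309), a call that was lost when any of 4 arrays was left out, replicate 3 among them (-0.17, adjusted p = 0.0871).

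Among 23 tested genes reported in the literature as miR-34a targets, 3 rose and 7 fell, with a median of -0.14 that turned to 0.017 when all probes of a gene were taken, beside 17.2% and 29.5% of all probes higher and lower. Kit, the stem cell factor receptor, was 3.09, 3.12, 2.95 and 3.13 at 21% O2 and 1.73, 1.81, 1.64 and 1.67 at 85% O2, a 2.57-fold fall (adjusted p = 4.2e-07). Foxp1, a transcription factor of lung epithelium, fell by 0.41 on its brightest probe, and 2 of its 4 probes were not called. Ccnd1, cyclin D1, rose 2.00-fold from 3.95 to 4.06 up to 4.94 to 5.07, and Fosl1, an AP-1 subunit, was above background only at 85% O2, at least 1.92-fold higher, with no call under normexp (0.25, adjusted p = 0.211). Sirt1, a deacetylase, had a difference of -0.24 that was not called (adjusted p = 0.0591). Polr2a, the RNA polymerase subunit used as a PCR reference, differed by -0.08 (adjusted p = 0.459).

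Matrix genes were mixed. Of 18 elastic fibre genes 7 fell and 1 rose (median -0.10), beside 29.5% of all probes lower and 17.2% higher. Mfap2, a microfibril glycoprotein, fell by 0.64, and Loxl4, a lysyl oxidase that cross-links elastin and collagen, rose 4.12-fold from between -4.97 and -4.52 to between -3.34 and -2.25 (normexp 1.01). Eln, elastin, was 3.30, 3.65, 3.46 and 3.21 at 21% O2 and 3.55, 3.43, 3.36 and 3.51 at 85% O2, overlapping groups with no call (0.06, adjusted p = 0.744). In the collagen and injury list of 24, 23 were tested, 7 rose and 4 fell, beside the same shares. The rises were led by Spp1, osteopontin, which was above background in 3 of 4 mice at 21% O2 and in all 4 at 85% O2 (7.26-fold, normexp 1.37), and also included Timp1, a metalloproteinase inhibitor (2.43-fold). Postn, periostin, fell by 0.61 and Col1a1, the chain of type I collagen, by 0.32.

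Signalling ligands and receptors of the TGF-β and BMP families gave 4 rises and 5 falls in 20, beside the same shares of all probes. Inhba, the subunit of activin A, rose 5.91-fold from -1.99, -2.21, -2.09 and -1.97 to 0.88, 0.75, -0.03 and 0.40. Replicate 3 was the lowest of the 85% O2 mice and still far above every mouse at 21% O2. The receptor gene Tgfbr2 rose 1.49-fold and the ligand gene Bmp6 fell by 0.60. In the lipofibroblast list 6 of 12 genes rose and 1 fell, again beside 17.2% and 29.5%. Lpl, lipoprotein lipase, rose 2.33-fold and Pparg, the adipogenic nuclear receptor, 1.52-fold, whereas Fgf10, a growth factor made by the same lineage, fell by 0.53.

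In the epithelium, type I pneumocyte genes, which mark the thin gas-exchange cells, were raised in 10 of 14 and lowered in 1, with a median of 0.46. Aqp5, their water channel, was 4.63, 4.74, 4.61 and 4.56 at 21% O2 and 5.32, 5.35, 5.62 and 5.53 at 85% O2, a 1.76-fold rise. Krt7, a keratin, rose 1.87-fold and Ager, the RAGE receptor, 1.64-fold, while Cav1, caveolin 1, fell by 0.43. Type II pneumocyte genes, which mark the surfactant-making cells, had 3 rises and 1 fall in 15 and a median of 0.01, the rises being near the 17.2% of all probes. Sftpc, surfactant protein C, stood at 8.73 ± 0.0522 and 8.66 ± 0.254 (SD, n = 4 each) and was not called, its sign turning under quantile normalization (0.06). Sftpa1 fell by 0.57, and Muc1, a membrane mucin, rose 1.59-fold. Of 12 airway secretory cell genes 2 rose, Aldh1a1, a retinal dehydrogenase, by 2.48-fold, and the count was 1 without replicate 3, beside 17.2% of all probes higher. Endothelial genes gave 5 rises and 7 falls in 22, beside 17.2% and 29.5% of all probes. Apln, the peptide apelin of angiogenic tip cells, rose 2.09-fold, and its receptor gene Aplnr fell by 0.92.

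Inflammatory transcripts rose. Of 25 chemokine and cytokine genes 21 were tested, 16 rose and 2 fell, with a median of 0.98. Cxcl5, a neutrophil-attracting chemokine, was -3.67, -4.94, -3.30 and -2.95 at 21% O2 and -0.47, 0.05, -1.16 and 0.06 at 85% O2, a 10.1-fold rise (adjusted p = 2.49e-05). Il6, interleukin 6, was above background in 1 of 4 mice at 21% O2 and in 4 of 4 at 85% O2, and rose from between -5.99 and -5.09 to between -3.94 and -3.30 (normexp 0.67). Ccl2, a monocyte chemokine, rose 4.17-fold from a narrow range (-2.42 to -2.21) to a wide one (-0.97 to 0.45). Cxcl10 rose 3.44-fold, a call lost without replicates 3 and 4 (1.40, adjusted p = 0.075). The falls were Cxcl12, the homeostatic stromal chemokine (by 0.37, its other probe at 0.20 and not called), and Cxcl15, a chemokine of lung epithelium (by 0.36, with groups that overlap), whose call was lost when any of 6 arrays was left out.

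Macrophage genes rose in 10 of 17 tested and fell in 1. Marco, a scavenger receptor, was 1.5, 1.56, 1.78 and 1.92 at 21% O2 and 4.74, 4.03, 4.47 and 4.17 at 85% O2, a 6.34-fold rise (adjusted p = 9.24e-07). Gpnmb, a lysosomal glycoprotein, rose 5.80-fold, Cd68, a lysosomal macrophage marker, 2.77-fold, and C1qb, a complement subunit, 2.25-fold. Siglecf, the lectin that marks resident alveolar macrophages, was -1.14, -0.77, -0.91 and -0.69 at 21% O2 and -1.67, -1.03, -2.23 and -1.87 at 85% O2 and fell by 0.82, with groups that overlap and no call without replicates 3 and 4 (adjusted p = 0.101). The summed neutrophil level overlapped between groups (5.09 to 6.02 at 21% O2, 5.40 to 5.68 at 85% O2), and 1 of 12 neutrophil genes was called, the elastase gene Elane, which fell by 0.50. Of 12 lymphocyte genes 4 rose, all of B cells, among them Ms4a1, which encodes CD20 (1.45-fold), and Cd79b (1.36-fold), and the helper T cell receptor gene Cd4 fell by 0.90. The summed thymus level was also lower at 85% O2, and its part in the fall of Cd4 was not tested.

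Interferon-stimulated genes had 3 rises and 4 falls in 14, near the 17.2% and 29.5% of all probes, and a median of -0.02 that turned to 0.03 under quantile normalization. Ifit3 rose by 1.53 on the log2 scale, whereas Isg15 fell by 0.61 and Rsad2 by 1.11 with groups that overlap, calls lost when any of 4 and any of 6 arrays was left out. In the MHC class II list 1 of 8 genes was called, Ctss, cathepsin S, which rose 1.92-fold. Clock genes gave 7 rises and 3 falls in 15 (17.2% and 29.5% of all probes). Bhlhe41, a clock repressor, rose 2.04-fold, though 1 mouse of 21% O2 was not well above background and the groups overlapped, and the call was lost without replicates 3 and 4 (0.74, adjusted p = 0.0928) and under normexp (0.29, adjusted p = 0.0823). Dbp, a clock output factor, rose 1.66-fold, while its relative Hlf fell by 0.93. In the cholesterol synthesis list 2 rose and 1 fell of 18, both below the shares of all probes, with Lss up by 0.38 and Dhcr7 down by 0.29 (adjusted p = 0.0555 without replicates 3 and 4). In the list of glucocorticoid-induced and metallothionein genes there were 3 rises and 3 falls in 13, again near the shares of all probes. The metal-binding proteins Mt1 and Mt2 rose 2.29-fold and 2.21-fold, the second call being lost without replicates 3 and 4 (0.93, adjusted p = 0.0641), whereas Fkbp5, a chaperone induced by glucocorticoids, fell by 0.42.

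The lists of red blood cells and other tissues stand beside the 29.5% of all probes that were lower. Of 8 red blood cell genes 4 fell, with a median of -0.90. Ahsp, the haemoglobin chaperone, fell 3.36-fold and Epb42 (listed as Epb4.2), a red cell membrane protein, 3.31-fold (normexp -0.87), while Rhag, a red cell ammonia channel, was above background only at 21% O2, at least 2.15-fold higher there (normexp -0.48). The summed red cell level overlapped (7.74 to 9.22 at 21% O2, 8.03 to 9.16 at 85% O2). Of 10 heart muscle genes 2 fell, Sln, sarcolipin of the atria, from 0.33, 1.31, 0.86 and 0.52 to -5.14, -1.79, -2.97 and -1.16, and Myl7, an atrial myosin light chain, by 1.78, a call lost when any of 4 arrays was left out, replicate 3 among them (adjusted p = 0.051). Of 4 tested thymus genes 2 fell, Dntt by 0.82 (normexp -0.41, and no call under quantile normalization) and Cd1d1 by 0.86, which is not confined to thymus. None of the 8 tested skeletal muscle genes and none of 4 Y chromosome genes was called. How far the amount of heart, thymus or blood taken with a lung differed between groups was not tested.

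Ranked by size over all named genes with both groups measured, the 12 largest rises held several genes outside these lists. Celf5, an RNA-binding protein known from neurons, was -2.93, -2.91, -2.88 and -2.90 at 21% O2 and 0.79, 0.85, 0.59 and 0.68 at 85% O2, a 12.4-fold rise (adjusted p = 8.44e-11). The 4 mice at 21% O2 were nearly identical. The carboxylesterases Ces1f and Ces2e rose 7.77-fold and 6.76-fold (normexp 1.49 for Ces1f), and Mab21l3 rose 6.78-fold (normexp 1.81). Saa3, an acute-phase apolipoprotein, rose 6.88-fold with a wide spread at 85% O2 (-0.01, 1.02, 2.89 and 3.17), and the highest of these were the arrays with liver transcripts. Without them the difference was 1.52 and was not called (adjusted p = 0.148). Sprr1a, a cornified envelope protein, rose 6.82-fold, a call lost when any of 4 arrays was left out, replicate 3 among them (adjusted p = 0.0503), or under normexp (1.51, adjusted p = 0.057).

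The rises of liver genes were larger with the arrays that held liver transcripts. Afp, α-fetoprotein, was -4.42, -4.25, -3.96 and -3.83 at 21% O2 and -3.19, -3.28, 4.42 and -1.04 at 85% O2. The difference of 3.35 became 1.61 without replicate 3 and 0.88 without replicates 3 and 4. It was called in both cases (adjusted p = 0.00702 and 0.0117), but not when any 1 of 5 arrays was left out, namely 85% O2 replicate 4 (adjusted p = 0.0535) or any of the 4 at 21% O2, nor under normexp (2.51, adjusted p = 0.0577). Fetub, fetuin B, went from 2.68 to 1.90 and 1.76 under the same omissions and was called in both cases, though not by the methods' t-test (adjusted p = 0.088), and had normexp 1.57. Fgg, fibrinogen γ, was above background only at 85% O2, at least 18.5-fold higher with all arrays and at least 5.47-fold higher without replicates 3 and 4, and was not called by the methods' t-test either (adjusted p = 0.077, normexp 2.39). Serpina3n, an acute-phase protease inhibitor, was -2.96, -2.96, -1.71 and -1.57 at 85% O2 and above background only there, at least 12.1-fold higher (at least 7.68-fold without replicates 3 and 4, normexp 1.83). Adm2, adrenomedullin 2, was at least 4.80-fold higher (at least 3.68-fold without them, normexp 0.89).

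The 12 largest falls were of varied function. Apart from Sln, they were led by Col2a1, the cartilage collagen, which was -0.96, -0.79, -0.27 and -0.36 at 21% O2 and -3.50, -3.39, -3.03 and -3.04 at 85% O2, a 6.24-fold fall (adjusted p = 8.54e-09). Cidec, a lipid droplet protein, fell 5.98-fold, and Spry4, a feedback inhibitor of receptor tyrosine kinases, fell 5.79-fold from between -1.65 and -1.11 to between -3.98 and -3.63. Igfbp7, a secreted binding protein of insulin-like growth factors, fell 5.54-fold. Axin2, a feedback target of WNT signalling, fell 4.61-fold on its brighter probe, while its other probe differed by 0.23 and was not called. Hrasls5 (now Plaat5), Slc26a10, Rhbdd1, Spert (now Cby2) and Krtap12-1 fell 4.50 to 5.53-fold (normexp -1.60 to -1.21). Myh8, the perinatal skeletal myosin, fell 4.52-fold, a call lost when any of the 8 arrays was left out, and the part of the lower summed skeletal muscle level in its fall was not tested. Every 85% O2 array had fewer probes well above background (33606 to 34590) than every 21% O2 array (36249 to 37041), and the part of this in the next counts was not tested. Of 7258 called named genes, 97 were above background in all mice at 21% O2 and in none at 85% O2, against 17 the other way. The largest such falls were those of Pdzd7, a scaffold of hair cells (at least 7.60-fold, normexp -1.39), Sprr4, a cornified envelope protein (at least 7.53-fold, normexp -1.53), and Cd247, the T cell receptor ζ chain (at least 6.35-fold, normexp -1.21), whose second probe rose by 1.15. The part of the lower summed thymus level in the value of Cd247 was not tested.

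How far this response depended on the antimiR was asked by setting it beside that of the scrambled antimiR mice, which were other animals on the same 2 slides. There, 15799 of 35981 probes were called (43.9%). Of the 16776 calls with antimiR-34a, 11836 (70.6%) were also calls with scrambled antimiR, which is 74.9% of the latter, and 11810 of them had the same direction and 26 the opposite one. Across probes, which are not independent and share slides, the log2 differences correlated at 0.794 (Pearson) and 0.81 (Spearman). Over the probes called with antimiR-34a, the median size of the difference was 0.51 with antimiR-34a and 0.42 with scrambled antimiR, and over those called with scrambled antimiR it was 0.46 and 0.50. Pdgfra had a log2 difference of -1.31 with antimiR-34a and -1.25 with scrambled antimiR, apart by -0.06 ± 0.0969 (SE, adjusted p = 0.874). Kit had -1.36 and -1.50, Cdkn1a 4.17 and 3.85, and Cdk1 -1.64 and -1.55, none of them called as different.

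**Figure D4:**
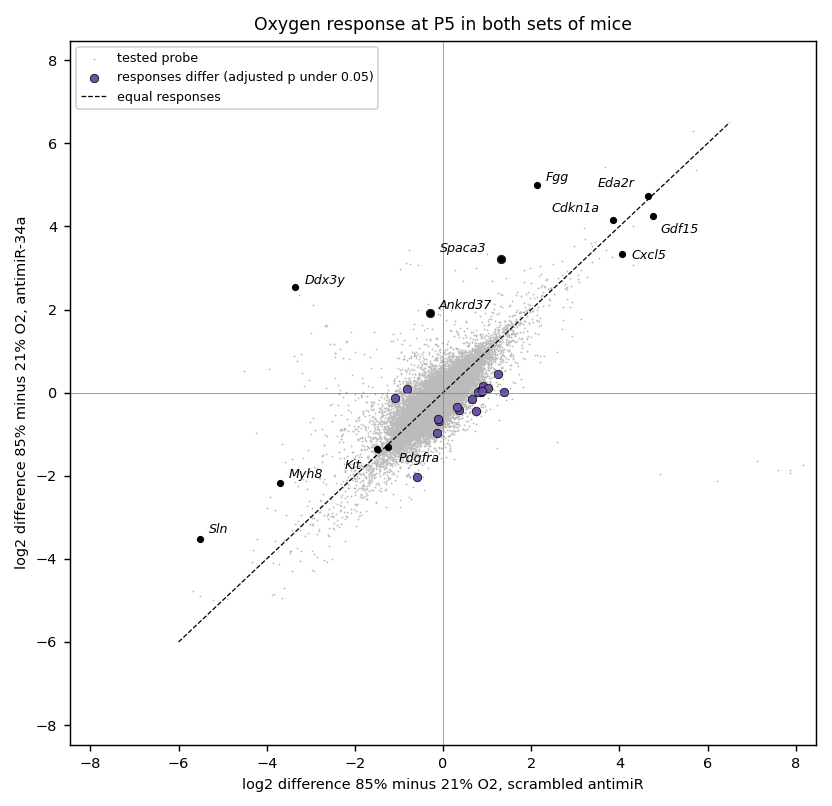
Log2 difference between 85% O2 and 21% O2 at P5 for each tested probe, with scrambled antimiR (x axis) and antimiR-34a (y axis), and a broken line where both are equal. Large points mark the 20 probes whose responses differed at an adjusted p under 0.05, and labelled points include Gdf15 (4.77 and 4.24) and, near the line, Pdgfra (-1.25 and -1.31).

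The difference between both responses was called for 20 of 35981 probes (0.0556%), 4 with a larger and 16 with a smaller value under antimiR-34a, and 3909 had an unadjusted p under 0.05. The count was 8 (4 and 4) with the summed Y gene level as a covariate, 4 (2 and 2) with a replicate block, 63 (18 and 45) with array weights, and 11 to 28 without 1 array. The antimiR-34a arrays held row 2 and the scrambled antimiR arrays row 1 of each slide, so the antimiR cannot be told apart from array position. The median standard error of a difference was 0.158, and the smallest difference called was 0.53. Of the 20 probes, 18 were also called without replicate 3 of 85% O2 antimiR-34a. They included 5 of 5 tested probes of a noncoding interval on chromosome 13, which differed by -0.84 to -0.79. With the Y gene covariate 1 of these 5 was still called (adjusted p = 0.0476), and the others had 0.0547 to 0.061.

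Ankrd37, an ankyrin repeat protein and HIF target, gave the largest of these differences. With antimiR-34a it was -0.24, -0.29, -0.01 and -0.59 at 21% O2 and 1.30, 1.84, 1.84 and 1.56 at 85% O2. With scrambled antimiR it was -0.27, 0.13, -0.26 and 0.01 at 21% O2 and -0.53, -0.56, -0.65 and 0.14 at 85% O2. It was thus high in 4 of 4 hyperoxic antimiR-34a mice and in no other P5 group (difference of responses 2.22 ± 0.256 SE, adjusted p = 0.00578). In the antimiR-34a mice of P14 the mean was -0.17 at 21% O2 and 1.87 at 85% O2, a rise of 2.05 with no called difference from P5 (0.13, adjusted p = 0.637). No other member of the HIF list had a called difference between the antimiRs. Spaca3, a sperm acrosome protein, differed by 1.90, but at 21% O2 its probe was above background in 0 of 4 antimiR-34a mice and 2 of 4 scrambled antimiR mice, so the size of that value is uncertain.

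Other genes had a smaller value with antimiR-34a. Maff, a small MAF factor, was 0.40, 0.61, 0.54 and 0.44 at 21% O2 and 0.85, 0.93, 0.93 and 1.10 at 85% O2 with antimiR-34a, against 0.15 to 0.22 and 1.39 to 1.51 with scrambled antimiR. Its level in 21% O2 was higher, and in 85% O2 lower, with antimiR-34a (difference of responses -0.80 ± 0.0903, adjusted p = 0.00578). Prdm1, a transcriptional repressor, was 0.42 to 0.63 and 0.39 to 0.81 with antimiR-34a and -0.09 to 0.13 and 0.94 to 1.13 with scrambled antimiR (-0.92). Dusp4, a MAP kinase phosphatase, had log2 differences of 0.17 and 0.91 (-0.74). A pair of genes changed in opposite directions. Nrarp, a feedback inhibitor of Notch signalling, fell by 0.44 with antimiR-34a (-0.33 and not called without replicates 3 and 4, adjusted p = 0.0693) and rose by 0.75 with scrambled antimiR, and Spry1, a Sprouty relative of Spry4, fell by 0.42 and rose by 0.36. In each of these 5 genes the antimiR groups did not overlap at 21% O2 either, but the test that chose them includes those values and favours such a gap. The antimiR difference at 21% O2 was called for Nrarp and Spry1 (both adjusted p = 0.0317) and Prdm1 (0.0438), but not for Maff (0.0693) or Dusp4 (0.0666). The summed Y gene level was high in 4 of 4 scrambled antimiR mice (2.87 to 3.07) and 1 of 4 antimiR-34a mice at 21% O2. With that level as a covariate the difference of responses was still called for Ankrd37, Spaca3, Acadsb, Maff and Nrarp (largest adjusted p 0.0375), and not for Prdm1 and Dusp4 (both 0.0547) or Spry1 (0.061). The differences of responses themselves moved little with the covariate: Prdm1 from -0.92 to -0.83, Dusp4 from -0.74 to -0.72 and Spry1 from -0.78 to -0.76. Between the antimiRs at 21% O2 itself, 49 probes were called without the covariate and 1 with it, that of Spaca3. As the Y gene level nearly followed the antimiR at 21% O2, the lost calls cannot be assigned to sex. Acadsb, a fatty acid dehydrogenase, fell by 0.68 with antimiR-34a (normexp -0.44) and had -0.10 with scrambled antimiR, on a probe whose value in 85% O2 replicate 1 was left out as an outlier spot, and its second probe differed by 0.07 with antimiR-34a. Has2, a hyaluronan synthase, lies outside the 8 genes with the smallest p and is named after its values were seen: it had 0.02 with antimiR-34a and 1.39 with scrambled antimiR (-1.37, adjusted p = 0.0174), a call lost with the Y gene covariate (adjusted p = 0.0758).

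**Figure D5:**
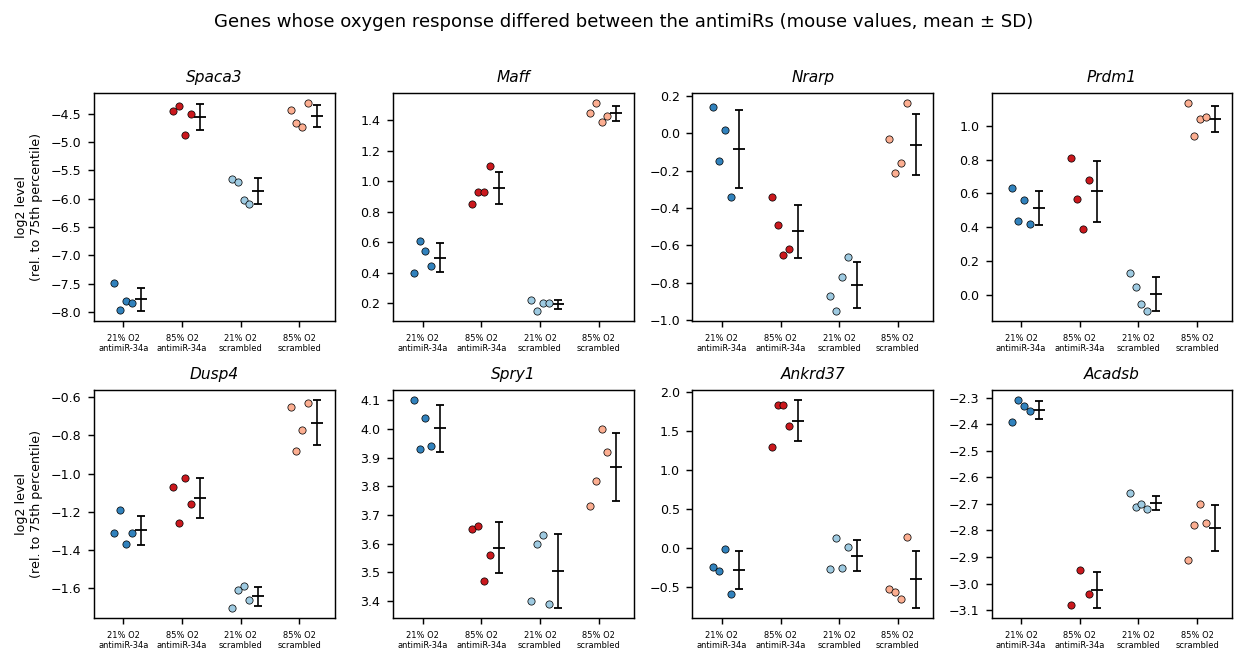
Log2 level relative to the 75th percentile (y axes) in each mouse, with mean ± SD over 4 mice (3 for Acadsb in 85% O2 antimiR-34a), for the 8 genes with a symbol and the smallest p for a difference of the oxygen response between the antimiRs. Among these P5 groups Ankrd37 is high (1.30 to 1.84) in the 85% O2 antimiR-34a mice alone, and for Maff, Nrarp, Prdm1, Dusp4 and Spry1 the antimiR groups do not overlap at either oxygen level. Choosing genes by the difference of responses favours such gaps.

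At P14 the oxygen response of antimiR-34a mice was wider. In a fit of all 32 arrays 26223 of 39159 probes were called at P14 (67.0%), of which 9392 changed at least 2-fold, against 2628 at P5 in the same fit. The response differed between the ages for 16836 probes (43.0%), 8735 with a higher and 8101 with a lower value at P14. This split depends on the processing: 10586 and 7402 under quantile normalization, 7774 and 4713 under normexp, and 8130 and 9098 with no filter on dim probes. The P14 mice were other animals on 2 further slides, 1 for each oxygen level. On their arrays 34603 to 35142 probes were well above background at 85% O2 and 39007 to 40210 at 21% O2. The part of this gap in the wider response was not tested. The p53 median was 1.94 at P14 and 1.55 at P5, and Gdf15 rose by 5.47 at P14 against 4.24 at P5 (adjusted p of the difference 8.61e-05). DNA replication genes had a median of -0.63 at P5 and -0.04 at P14, and 15 of 22 differed between the ages, all higher at P14. Kit fell by 3.49 at P14 and by 1.36 at P5 (adjusted p = 2.83e-09), whereas the difference for Pdgfra (-2.03 and -1.31) was not called (adjusted p = 0.0529). Lymphocyte genes had a median of 0.15 at P5 and -0.87 at P14, with Ms4a1 up by 0.54 at P5 and down by 1.94 at P14. In this fit the P5 call of Ms4a1 was lost without 85% O2 replicates 3 and 4 of P5 (0.56, adjusted p = 0.0512). The thymus list had medians of -0.72 and -2.03, with a lower value at P14 called for 4 of 7 genes, and its part in the lymphocyte values was not tested. In the opposite sense Wnt5a, lower at P5 by 0.69, had 0.03 at P14, and the rise of Lpl at P5 (1.22) was 0.18 at P14.

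Among genes above background in all 16 antimiR-34a mice, the largest differences between the ages included those of Bean1, a membrane protein that binds the ubiquitin ligase NEDD4, whose log2 difference was 0.86 at P5 and 5.77 at P14, and of Cyp2e1, a cytochrome P450, which rose by 1.73 at P5 and fell by 4.68 at P14. In Bean1 the P5 call was lost without 85% O2 replicates 3 and 4 (0.76, adjusted p = 0.12). At P5 Cyp2e1 was highest in replicate 3, the array with the most liver transcripts (0.12, against -1.78 to -1.56 in the other 85% O2 mice), and without replicates 3 and 4 it rose by 1.25 and was still called (adjusted p = 0.00588). The liver list had medians of 2.98 at P5 and -1.89 at P14, with a lower value at P14 called for 5 of 9 genes, and its part in the value of Cyp2e1 at P14 was not tested. The matrix-associated gene Lrrc15 fell by 1.52 at P5 and rose by 1.63 at P14, and Saa3 rose by 2.78 and 6.13. Tssk5, a testis kinase, and Clstn3, a calsyntenin, were not called at P5 (-0.46 and 0.02) and fell by 6.60 and 4.74 at P14, where the SD of the P14 mice at 21% O2 was 1.60 and 1.36.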

How the data were processed

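Total lung RNA was labelled with Cy3 and hybridised to 1-colour Agilent mouse 8 x 60K arrays, 1 mouse an array. Per the file headers, the deposited files hold spot intensity from Agilent Feature Extraction 10.7.3.1, background-subtracted and detrended within an array, with no normalization between arrays. Also deposited by the authors were log2 values, equal in distribution in every column, used as an alternative.

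Control spots and outlier spots were removed, repeated spots of a probe were averaged, and the log2 processed intensity was centred on the 75th percentile of each array. A probe was tested if every one of the 4 arrays in some group had it well above background (35981 of 55681). The 16 P5 arrays were fitted together in limma 3.58.1 (R 4.3.3) with 1 mean per group, empirical Bayes moderation and Benjamini-Hochberg adjustment at 0.05, and all 32 arrays for the change with age. The scripts were tested on simulated data. Alternatives were other background correction, normalization and filters, the methods' t-test, array weights, a Y gene covariate, a replicate block and leaving out arrays. No depth applies to arrays, and 4 mice a group limit the precision. Only mRNA arrays were analysed.

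The members, gene lists and tests were chosen with earlier results of these data known. Named genes were the 12 largest called rises and falls with non-overlapping groups above background in all 8 mice, up to 4 bounds in each direction, the genes the paper names, leading members of 31 lists written by hand (and a liver list added later), the 8 leading genes that differed between the antimiRs, and 3 in each direction between the ages. Each gene is given on its brightest tested probe, except that genes called for a difference between the antimiRs are given on the called probe. For Acadsb this probe was picked by the smallest p of that difference. Where a group was not above background on any array, its values were raised to the faintest probe above background on the same array, and the fold is a bound. Of 136 named-gene probes with a listed chromosome, 4 lie on another one than the gene. Interval coordinates are mm9, and RefSeq sequences GRCm38.p6.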

Additional observations from a re-analysis of the deposited data

Results flagged for a closer look

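In groups of 4, a mouse was marked where its gap to the nearest other mouse took up nearly the whole range of the group. This was so in 16 of 289 groups examined, and chance alone marks about 1 in 20. At 21% O2 the gap was 0.845 of the range for Spry4, 0.946 for Aspn and 0.992 for Bmp6 (all replicate 4), 0.9265 for Il6 (replicate 3), and 0.887 for Hlf and 0.948 for Cd4 (both replicate 2). At 85% O2 it was 0.872 for Fetub, 0.899 for Sprr4, 0.872 for Trib3 and 0.8292 for Spp1 (all replicate 3, the array with liver transcripts), 0.885 for Mki67 and 0.831 for the probe named for Rrm2 (both replicate 2), and 0.868 for Vegfa, 0.929 for Ahsp and 0.903 for Rhag (all replicate 1). Sprr4 and Rhag were not above background in any 85% O2 mouse, so their gaps lie among background values. The 75th percentile of 21% O2 replicate 3 was also apart from its group (0.917).

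The oxygen response differed between antimiR-34a and scrambled antimiR, by the test of that difference, for Ankrd37 (2.22), Spaca3 (1.90), Nrarp (-1.20), Prdm1 (-0.924), Maff (-0.796), Spry1 (-0.777), Dusp4 (-0.739) and Acadsb (-0.585). These are the 8 named genes with the smallest p. Has2 (-1.37) and Rdh19 (-1.44) were also called, but not with the summed Y gene level as a covariate (adjusted p = 0.0758 and 0.112), nor Rdh19 without 85% O2 antimiR-34a replicate 3 (0.0553). The probe named for Nr1d2 (-0.645) was called too, though not with that covariate (adjusted p = 0.0758). The array annotation places it on chromosome 19 while the gene is on chromosome 14. Array position moved with the antimiR, and its part in these values was not tested.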

How the results depend on the processing

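The 16776 calls were between 14586 and 17894 when each array was left out in turn (14586 without 85% O2 replicate 4, 17894 without replicate 3), 7538 with 1 probe per gene (fitted and adjusted on those probes alone) and 2328 at 2-fold or more. Leaving out an array gave 13343 to 16586 calls with scrambled antimiR and 15342 to 17166 for the age difference. The 20 differences between the antimiRs became 31 with probes above background on every array, 63 with array weights, 8 with the summed Y gene level as a covariate, 5 at 2-fold or more, and 11 to 28 without 1 array (11 without 21% O2 antimiR-34a replicate 3, and 13 without its replicate 4, without 21% O2 scrambled antimiR replicate 3 or without 85% O2 scrambled antimiR replicate 2). Replicate numbers did not pair the antimiR-34a mice: deviations of same-numbered mice correlated at 0.0762, 0.00341, -0.0407 and 0.118. With a replicate block, 16262, 15375, 4 and 16705 calls were made for antimiR-34a, scrambled antimiR, their difference and the age difference.

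Among the lists, quantile normalization gave medians of 0.027 (interferon-stimulated), 0.060 (cholesterol synthesis), 0.0077 (skeletal muscle) and -0.72 (thymus), with 2 MHC class II, 2 neutrophil and 1 thymus gene called. Without 85% O2 replicate 3, medians were 0.45 (antioxidant), 0.36 (HIF), -0.0037 (collagen) and -0.053 (interferon-stimulated), with 1 airway and 2 MHC class II genes called. Without replicates 3 and 4, an alternative added after the data were seen like the one before it, medians were 0.35 (HIF), 0.53 (type I), -0.076 (endothelial), -0.080 (interferon-stimulated), -0.10 (glucocorticoid) and -0.20 (neutrophil), with 1 airway, 2 MHC class II, 2 neutrophil, 3 lymphocyte and 1 heart gene called. Over all probes of a gene, medians were 0.83 (NRF2), -0.045 (interferon-stimulated) and 0.017 (miR-34a targets).

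Of 143 named genes 135 were called, and under 19 settings 2444 of their values stayed called with the same sign, 105 lost the call and 1 turned its sign. That was Acadsb in the authors' values (0.77), which keep the outlier spot. Quantile normalization ended the calls of Myh8, Acta2 and Dntt, and the methods' t-test those of Sln, Ahsp, Rhag, Siglecf, Lss, Fkbp5 and Elane, among others. Perp, Sirt1, Dusp4 and Gins2, not called, gained a call under 13 combinations of gene and setting. Among genes not called, Sftpc turned to 0.063 with quantile normalization or the authors' values, and its value was -0.19 to 0.0015 when an array was left out (0.0015 without 85% O2 replicate 2). Eln was -0.010 to 0.14 (-0.010 without 21% O2 replicate 4). Causes were not tested. A slide block could not be fitted. The methods' t-test, run for neither the difference between the antimiRs nor that between the ages, called 11943 probes after Benjamini-Hochberg correction. What a probe near background can show is limited: its fold is a bound.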
